A study of Mus musculus with 6 samples.

Results

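The genes described here are 45 that make ribosomes before any protein is translated: factors of the nucleolus, of small nucleolar ribonucleoprotein particles (snoRNPs), of pre-ribosomal RNA processing and subunit assembly, and of RNA polymerase I. They were chosen by name, with earlier results of these data known, and all 45 were found among the 55536 gene identifiers of the count tables. The mRNA of CAD cells was sequenced; CAD is a male mouse line of the central nervous system (strain C57BL/6 x DBA/2) transformed with simian virus 40. All libraries come from this established line, so each group describes dividing or differentiated cells of a transformed line and not primary neurons. The undifferentiated group (n = 3) grew in medium with 8% serum. The dexamethasone group (n = 3) was differentiated for 5 days with 100 µM dexamethasone, a synthetic glucocorticoid, with the serum cut to 1%. Steroid and serum therefore changed together and their effects cannot be told apart. Samples are labelled as independent without mention of separate cultures, and p-values cover only the spread among them, which may be technical in origin.

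Ribosomes are assembled in the nucleolus. RNA polymerase I, brought to the ribosomal DNA by the factors that Ubtf and Rrn3 encode, transcribes a long precursor that holds the 18S, 5.8S and 28S RNAs. Box C/D snoRNPs methylate this precursor and box H/ACA snoRNPs convert chosen uridines to pseudouridine, while large sets of assembly factors fold, cut and export the small and large subunits. The pathway takes up much of the synthetic capacity of a growing cell, and Myc proteins are known to drive many of its genes. Ribosomal RNA itself was not measured, because the libraries were selected for mRNA.

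The start regions of several members show short words that known transcription factors recognise. RefSeq start regions of GRCm38.p6, 250 bases before to 50 bases after the annotated start, were matched by symbol for 41 of the 45 genes (not Fbl, Rrp12, Bop1 and Npm1). The words searched on both strands were the E box CACGTG, which Myc and Max bind, the GC box GGGCGG, the ETS word CCGGAAG, the YY1 word AAGATGGCG, the NRF1 word GCGCATGCG, and the E2F words TTTGGCGC and TTTCCCGC. The stretches below lie upstream of the annotated start sites, run 5′ to 3′ in the direction of the gene and carry the word in capitals. Where the word lies on the other strand, as for Nop58, Ncl and Gar1, its reverse complement is in capitals. They are shown for E boxes in the gene of a polymerase I initiation factor and of a large subunit methyltransferase, for the 3 members with an E2F word, and for the ETS words of a gene that fell strongly and of one that hardly fell. Positions are counted from the RefSeq start site.
Rrn3, E box word at -48, chr16:13780614-13780693, plus strand: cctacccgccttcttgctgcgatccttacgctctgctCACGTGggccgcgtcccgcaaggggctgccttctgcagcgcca
Nop2, E box word at -60, chr6:125131786-125131865, plus strand: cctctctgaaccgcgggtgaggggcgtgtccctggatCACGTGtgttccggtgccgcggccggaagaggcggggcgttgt
Nop58, E2F word at -108, chr1:59684862-59684941, plus strand: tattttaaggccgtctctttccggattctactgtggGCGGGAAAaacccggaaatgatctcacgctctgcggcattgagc
Ncl, E2F word at -224, chr1:86359626-86359705, minus strand: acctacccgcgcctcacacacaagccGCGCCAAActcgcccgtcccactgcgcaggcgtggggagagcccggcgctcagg
Nolc1, E2F word at -117, chr19:46075694-46075773, plus strand: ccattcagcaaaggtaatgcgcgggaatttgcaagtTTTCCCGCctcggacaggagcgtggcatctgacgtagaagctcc
Gar1, ETS word at -43, chr3:129831397-129831476, minus strand: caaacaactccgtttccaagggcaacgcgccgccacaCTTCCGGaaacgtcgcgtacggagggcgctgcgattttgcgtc
Polr1c, ETS word at -42, chr17:46248055-46248134, minus strand: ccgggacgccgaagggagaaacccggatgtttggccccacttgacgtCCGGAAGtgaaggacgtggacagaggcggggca

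The E box was present in 8 of 41 members (19.5%), in 15 of 75 other genes of ribosome biogenesis with the polymerases left out, in 10.3% of 9362 tested genes and in 7.7% of all 20595 start regions. It occurred in Rrn3, Nop2, Utp20, Wdr43, Tsr1, Ltv1, Pes1 and Nle1, and Rrn3 had a further E box at -215. Only in 2 of these 8, Rrn3 and Nop2, did it lie upstream of the start sites of both RefSeq and the count files. In the others it began after the RefSeq start site, at positions 3 (Pes1) to 38 (Utp20). The ETS word was in 13 members (31.7%) and in 34 of the 75 other ribosome biogenesis genes (45.3%), against 19.5% of tested genes and 2265 of the 20595 regions. In 7 of the 13 members an ETS word lay upstream of both start sites. The E2F words were in 3 members (7.3%), namely Nop58, Ncl and Nolc1, in 0 of the 75 other genes, in 3.3% of tested genes and in 2.0% of all regions. The GC box was in 29 members (70.7%) and 67.1% of tested genes, and the YY1 and NRF1 words were in 1 member each, Ftsj3 and Nob1. Of the 81 places found in the members' windows, 3 pairs of different words shared bases. A match is a description of letters and not a binding site, and medians by word are given without a test. The median log2 fold change was -1.0 over the 8 members with an E box and -1.08 over the 33 without, -1.03 over the 13 with the ETS word and -1.06 over the 28 without, and -1.5 over the 3 with an E2F word and -1.0 over the 38 without.

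All 45 members were tested and all 45 fell in the dexamethasone group. The test was edgeR's quasi-likelihood test over 12664 genes with enough reads, and a gene was called at a Benjamini-Hochberg adjusted p under 0.05. The background is high: 38.6% of tested genes were called lower and 40.3% higher, and none of the members was called higher. In all 45 members every dexamethasone library lay below every undifferentiated library, which held for 38.9% of tested genes. The members' median log2 fold change was -1.09, a 2.13-fold lower level, where the median of all tested genes was 0.02 and their 25th percentile -0.55. A fall of at least 2-fold was found for 26 members (12.2% of all tested genes fell that far), of at least 3-fold for 6, between 1.5-fold and 2-fold for 16, and under 1.5-fold for Polr1c, Nop14 and Rrp1. All values are shares of the mRNA counted in each library, and in these bulk samples fewer cells of a type and less RNA per cell cannot be told apart.

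**Figure D1:**
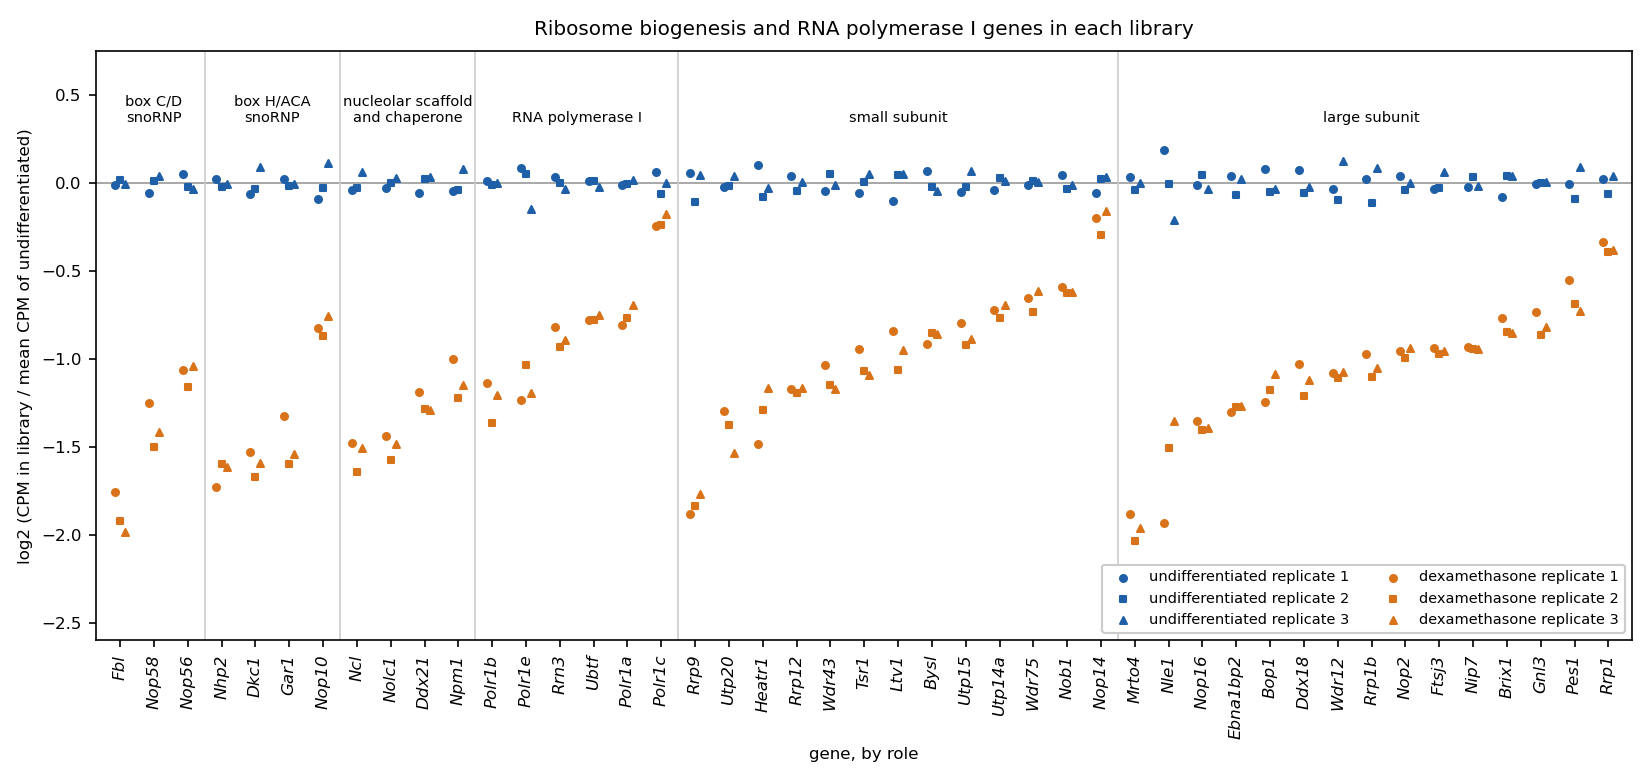
Level of each of the 45 genes in each of the 6 libraries, as log2 of the library's CPM over the mean of the undifferentiated libraries (y axis), with genes grouped by role (x axis); each point is a library. Every dexamethasone point lies below every undifferentiated point of its gene, closest for Polr1c, Nop14 and Rrp1 and farthest for Mrto4 and Fbl.

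Together the members took 1.64% ± 0.036 (SD, n = 3) of all counts in undifferentiated and 0.816% ± 0.029 (SD, n = 3) in dexamethasone libraries, a ratio of 2.01. Their summed level was 16890 to 17650 CPM (reads relative to the library's total, scaled with TMM factors) in undifferentiated and 7494 to 8170 CPM in dexamethasone libraries, with no overlap. Ncl and Npm1 alone made up 42.5% and 37.7% of these sums. The fewest reads over a dexamethasone group were 341, for Nle1, so no member was near the detection limit of 3 reads (0.343 to 0.468 CPM). The median coefficient of variation between libraries was 3.50% in undifferentiated and 4.53% in dexamethasone cells. The log2 fold changes of the members spread with an SD of 0.40, against a median standard error of 0.057 for a single gene.

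Box C/D snoRNPs carry out 2′-O-methylation of ribosomal RNA, and all 3 of their core genes among the members fell at least 2-fold (median log2 fold change -1.38). Fbl encodes fibrillarin, the methyltransferase of the particle (ENSMUSG00000046865, chromosome 7, 28169710 to 28179269 in GRCm38, plus strand). It was at 232.5, 237 and 234 CPM in undifferentiated replicates 1, 2 and 3 and at 69.4, 61.8 and 59.3 CPM in dexamethasone replicates 1, 2 and 3. All dexamethasone libraries lay far below all undifferentiated ones, a 3.68-fold fall (log2 fold change -1.88 ± 0.060 SE, edgeR adjusted p = 9.18e-21). Nop56, a scaffold protein of the particle (chromosome 2, 130274430 to 130279313), was at 384, 364.5 and 361 CPM and then at 177, 166 and 180 CPM, 2.13-fold lower (log2 fold change -1.09 ± 0.052 SE). Its paralog Nop58 (chromosome 1, 59684971 to 59719044) was at 489.6, 513 and 524 CPM and then at 214, 179.5 and 191 CPM, 2.61-fold lower. In each of the 3 genes the groups were far apart, and the fitted fall was largest for Fbl.

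Box H/ACA snoRNPs make pseudouridine, and their proteins are also part of telomerase. All 4 core genes fell, 3 of them at least 2-fold (median -1.54). Dkc1, which encodes the pseudouridine synthase dyskerin (ENSMUSG00000031403, chromosome X, 75095854 to 75109777, plus strand), was at 211, 216 and 236 CPM and then at 76.6, 69.4 and 73.3 CPM. This was a 3.02-fold fall (log2 fold change -1.59 ± 0.059 SE, edgeR adjusted p = 3.62e-19). Nhp2 had the lowest log2 fold change of the particle: it went from 388.5, 377 and 381 CPM to 115, 126 and 125 CPM, 3.13-fold lower. Gar1 fell 2.79-fold, from 123 ± 1.83 to 44.0 ± 4.49 CPM (SD, n = 3). Nop10, the smallest protein of the particle, fell least, from 106, 111 and 122 CPM to 63.8, 61.8 and 66.9 CPM (log2 fold change -0.82 ± 0.065 SE). Its groups did not overlap either, so the mRNAs of all 4 core genes moved down, with 1 gene behind the other 3.

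All 4 nucleolar scaffold and chaperone genes fell at least 2-fold (median log2 fold change -1.38), and 2 of them took the most reads of the set. Ncl encodes nucleolin, an RNA-binding protein of the nucleolus (ENSMUSG00000026234, chromosome 1, 86344719 to 86359400, minus strand). It had 3310, 3334 and 3545 CPM in undifferentiated and 1220, 1085 and 1194 CPM in dexamethasone libraries, a 2.91-fold fall (log2 fold change -1.54 ± 0.051 SE, edgeR adjusted p = 2.72e-20). Npm1, the histone and ribosome chaperone nucleophosmin (ENSMUSG00000057113, chromosome 11, 33152287 to 33163206, minus strand), had 3771, 3785 and 4112 CPM and then 1944, 1663 and 1756 CPM, 2.17-fold lower (log2 fold change -1.12 ± 0.054 SE). Both took more reads than any other member in each group, before and after the fall. Nolc1, a chaperone of snoRNPs, fell 2.83-fold and Ddx21, a helicase found at ribosomal DNA and on snoRNAs, 2.38-fold.

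All 6 genes of RNA polymerase I and its initiation factors fell, 2 of them at least 2-fold. Their median log2 fold change, -0.83, was the smallest fall of the 6 roles, a difference between roles that was not tested. Polr1a encodes the largest subunit (ENSMUSG00000049553, chromosome 6, 71909053 to 71984935, plus strand). It was at 170.2, 170.5 and 174 CPM and then at 97.9, 101 and 106 CPM, 1.69-fold lower (log2 fold change -0.76 ± 0.054 SE, edgeR adjusted p = 6.48e-13). Polr1b, whose product completes the active centre (chromosome 2, 129100995 to 129126594), was at 92.0, 90.4 and 91.2 CPM and then at 41.4, 35.4 and 39.6 CPM. It had the lowest log2 fold change of the 6 genes, -1.23 ± 0.070 (SE). Polr1e, a subunit that acts in initiation, fell 2.22-fold from 42.9 ± 3.61 to 19.3 ± 1.42 CPM (SD, n = 3).

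The fitted falls of both initiation factors lay near that of Polr1a. Rrn3 encodes TIF-IA, which joins the polymerase to the promoter and responds to growth signals (ENSMUSG00000022682, chromosome 16, 13780708 to 13814839, plus strand; its E box stretch is printed above). It was at 213, 208 and 204 CPM and then at 118, 109 and 112 CPM, 1.84-fold lower (log2 fold change -0.88 ± 0.053 SE). Ubtf encodes UBF, which coats active ribosomal DNA (ENSMUSG00000020923, chromosome 11, 102304560 to 102319742, minus strand). It was at 329.9, 330.0 and 322 CPM and then at 190.6, 190.7 and 194.5 CPM, 1.71-fold lower (log2 fold change -0.77 ± 0.049 SE). Polr1c was the exception of the group. Its product is a subunit of both RNA polymerase I and RNA polymerase III (chromosome 17, 46243920 to 46248054), and its mRNA went only from 113, 103 and 108 CPM to 91.2, 91.3 and 95.8 CPM. The groups did not overlap and the gene was called by edgeR (-0.22 ± 0.058 SE on the log2 scale, adjusted p = 0.00127), but the call did not hold with upper quartile factors (-0.12, adjusted p = 0.0668) or library totals (-0.10, adjusted p = 0.137).

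All 13 small subunit genes fell, 6 of them at least 2-fold (median -0.95). Rrp9, the protein that marks the U3 snoRNP of the small subunit processome (chromosome 9, 106475963 to 106485424), had the lowest log2 fold change. It was at 94.4, 84.0 and 93.7 CPM and then at 24.6, 25.4 and 26.6 CPM, 3.55-fold lower (-1.83 ± 0.076 SE, edgeR adjusted p = 3.71e-18). The processome scaffold gene Utp20 fell 2.62-fold. Of the subcomplex that joins processing to transcription, Heatr1 fell 2.49-fold, Wdr43 2.17-fold, Utp15 1.82-fold and Wdr75 1.59-fold. Utp14a, which activates a helicase of the processome, fell 1.66-fold. The genes of late, cytoplasm-bound precursors followed. Rrp12, an export factor, fell 2.26-fold, Tsr1, a GTPase-like factor, 2.04-fold (32.3% of its exon bases lie opposite Srr), the assembly factor Ltv1 1.93-fold and Bysl 1.84-fold. Nob1, the nuclease that makes the final cut of the 18S RNA (chromosome 8, 107412486 to 107425051), was at 143, 135 and 137 CPM and then at 91.9, 89.8 and 90.2 CPM, 1.53-fold lower (-0.61 ± 0.056 SE).

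Nop14, a processome protein that travels with the small subunit precursor (chromosome 5, 34638536 to 34660148), hardly moved beside these genes. Its libraries were at 195.5, 206 and 208 CPM and then at 177, 166 and 182 CPM. The groups were close but did not overlap (log2 fold change -0.22 ± 0.053 SE, edgeR adjusted p = 0.000592), and with library totals the gene was not called (-0.09, adjusted p = 0.111). Of its exon bases 5.27% are overlapped by a gene on the other strand. Such overlap is not particular to Nop14: 17 members have some, and it is larger for Tsr1 (32.3%), Utp14a (11.45%) and Bysl (9.37%).

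All 15 large subunit genes fell, 8 of them at least 2-fold (median -1.04). Mrto4 encodes a placeholder for the stalk protein P0 on the precursor of the large subunit (ENSMUSG00000028741, chromosome 4, 139347435 to 139352576, minus strand). It was at 258, 244 and 251 CPM and then at 68.0, 61.1 and 64.3 CPM, 3.89-fold lower and the lowest log2 fold change of all 45 members (-1.96 ± 0.057 SE, edgeR adjusted p = 1.45e-21). Mrto4 has 2 named processed pseudogenes, to which some of its reads could have been assigned. Nle1, which is removed from the precursor by a large ATPase, fell 3.03-fold from 41.5 ± 5.67 to 13.9 ± 2.76 CPM (SD, n = 3) and had the largest standard error, 0.12. At the other end Rrp1 was at 596, 562 and 603 CPM and then at 465, 447 and 450.5 CPM, only 1.29-fold lower (-0.37 ± 0.048 SE, edgeR adjusted p = 7.55e-08). Its paralog Rrp1b fell 2.05-fold.

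Bop1, Pes1 and Wdr12 encode the PeBoW complex, which is needed for maturation of the 28S and 5.8S RNAs. Bop1 (ENSMUSG00000022557, chromosome 15, 76452989 to 76477277, minus strand) was at 257, 235 and 238 CPM and then at 102.5, 107 and 115 CPM, 2.25-fold lower (-1.17 ± 0.057 SE). Wdr12 (chromosome 1, 60069785 to 60098645) was at 89.9, 86.0 and 100.5 CPM and then at 43.6, 42.7 and 43.8 CPM, 2.12-fold lower (-1.08 ± 0.070 SE). Pes1 (chromosome 11, 3963975 to 3980004) fell less, from 347.5, 327 and 372 CPM to 238, 217 and 210.4 CPM, 1.57-fold (-0.65 ± 0.056 SE). Each of the 3 genes had groups that did not overlap.

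The remaining large subunit genes lay between these ends. The fall was 2.61-fold for Nop16, 2.43-fold for Ebna1bp2, 2.17-fold for the helicase gene Ddx18, 1.95-fold for the RNA cytosine methyltransferase gene Nop2 and 1.94-fold for the methyltransferase gene Ftsj3. It was 1.92-fold for Nip7, 1.77-fold for Brix1 and 1.75-fold for Gnl3, which encodes the GTPase nucleostemin. Their adjusted p-values (edgeR) were 1.17e-13 or less.

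**Figure D2:**
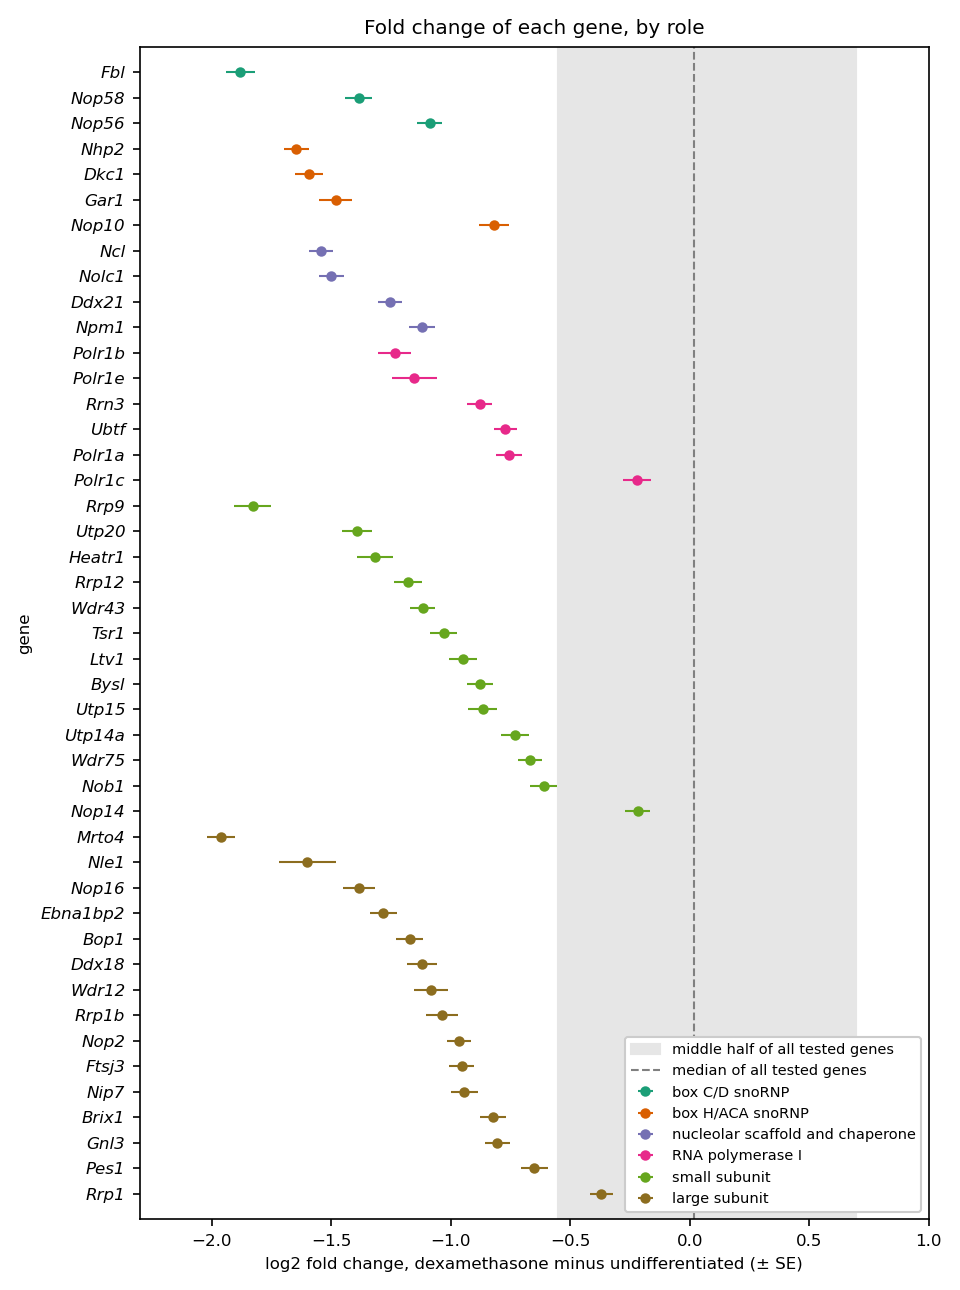
Fitted log2 fold change, dexamethasone minus undifferentiated (x axis), of each gene (y axis) with its standard error as a bar, coloured by role; the grey band spans the 25th to 75th percentile of all 12664 tested genes and the dashed line marks their median. 42 of the 45 genes lie left of the band, and Polr1c, Nop14 and Rrp1 lie within it.

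The members' levels correlated between the groups, while several genes changed place. Levels were compared between genes per kilobase of the transcript with the longest coding sequence, since longer mRNAs give more reads. Npm1 was highest on this scale in both groups, at 2382 ± 118 and 1095 ± 87.8 CPM per kb (SD, n = 3), and Wdr12 lowest, at 9.20 ± 0.748 and 4.33 ± 0.057. After Npm1 came Ncl at 414 ± 15.8, Nhp2 at 367 ± 5.57 and Rrp1 at 296 ± 10.9 CPM per kb in undifferentiated cells. In dexamethasone cells the second place went to Rrp1, at 229 ± 4.77 CPM per kb, ahead of Ncl at 142 ± 8.75 and Nhp2 at 117 ± 5.73. Polr1c moved from place 22 to place 8, Nop14 from 25 to 11, Mrto4 from 5 to 18 and Fbl from 7 to 17. Over the merged exons of all annotated transcripts these places were 29 and 15 for Polr1c and 20 and 34 for Fbl. For Nop14 they were 15 and 7, and for Mrto4 12 and 26. Across the 45 genes, which share libraries and are no independent replicates, Pearson's r of the log2 levels in the 2 groups was 0.962, and r of the undifferentiated level with the log2 fold change was -0.07. The levels spanned 259-fold in undifferentiated and 253-fold in dexamethasone cells, and r over such a range says little about single places. The length of an mRNA in these cells is uncertain. It differs most between these choices for Fbl, whose merged exons are 3.52 times as long as the coding transcript (4209 and 1197 bases), and Ncl, Nop58 and Wdr12 have long annotated transcripts, so a gene's place depends on the length used.

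Ratios of genes of a complex within a library do not depend on how libraries are scaled. For these ratios the reads of each gene were divided by the length of its merged exons. The level of a ratio can therefore differ from that on the coding transcripts used above, while its change between groups does not depend on length. Of 12 ratios 7 had groups that did not overlap. The share among ratios of other gene pairs was not determined, so this count is a description of the 12 only. Separated groups are common in these data: in 38.9% of tested genes every dexamethasone library lay below every undifferentiated library. That share leaves out genes separated in the other direction, while the 7 ratios include both directions. It is therefore too low to serve as a background for the 7 ratios. With 3 libraries against 3 the two-sided exact permutation test cannot go below p = 0.1, so none can pass the threshold; the 7 stood at that p (0.171 adjusted over the 12 ratios). Fibrillarin mRNA fell relative to its partner: the log2 ratio of Fbl to Nop56 reads per kilobase was -0.76, -0.66 and -0.67 in undifferentiated and -1.39, -1.46 and -1.64 in dexamethasone libraries, a change of -0.80. The ratio of Nop58 to Nop56 changed by -0.30. In the H/ACA particle Nop10 gained on Dkc1, with log2 ratios of 0.90, 0.93 and 0.95 and then 1.63, 1.73 and 1.76, a change of 0.78, while Gar1 to Dkc1 (0.11, or 0.06 to 0.15 with a library left out) and Nhp2 to Dkc1 (-0.05) had overlapping groups.

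Within RNA polymerase I the ratios of Polr1b, Polr1c and Polr1e to Polr1a changed in both directions, though none could pass the threshold. The log2 ratio of Polr1c to Polr1a was 1.79, 1.66 and 1.70 in undifferentiated and 2.28, 2.24 and 2.23 in dexamethasone libraries, a change of 0.54. The ratio of Polr1b to Polr1a changed by -0.48 and that of Polr1e to Polr1a by -0.40, both without overlap. The initiation factors kept closer to the large subunit, with changes of -0.12 for Rrn3 and -0.01 for Ubtf and overlapping groups (exact permutation p = 0.2 and 0.7). In PeBoW the log2 ratio of Pes1 to Bop1 rose from 0.40, 0.45 and 0.61 to 1.19, 0.98 and 0.84, a change of 0.52. The ratio of Wdr12 to Bop1 changed by 0.09, and its groups overlapped (0.03 to 0.16 with a library left out).

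**Figure D3:**
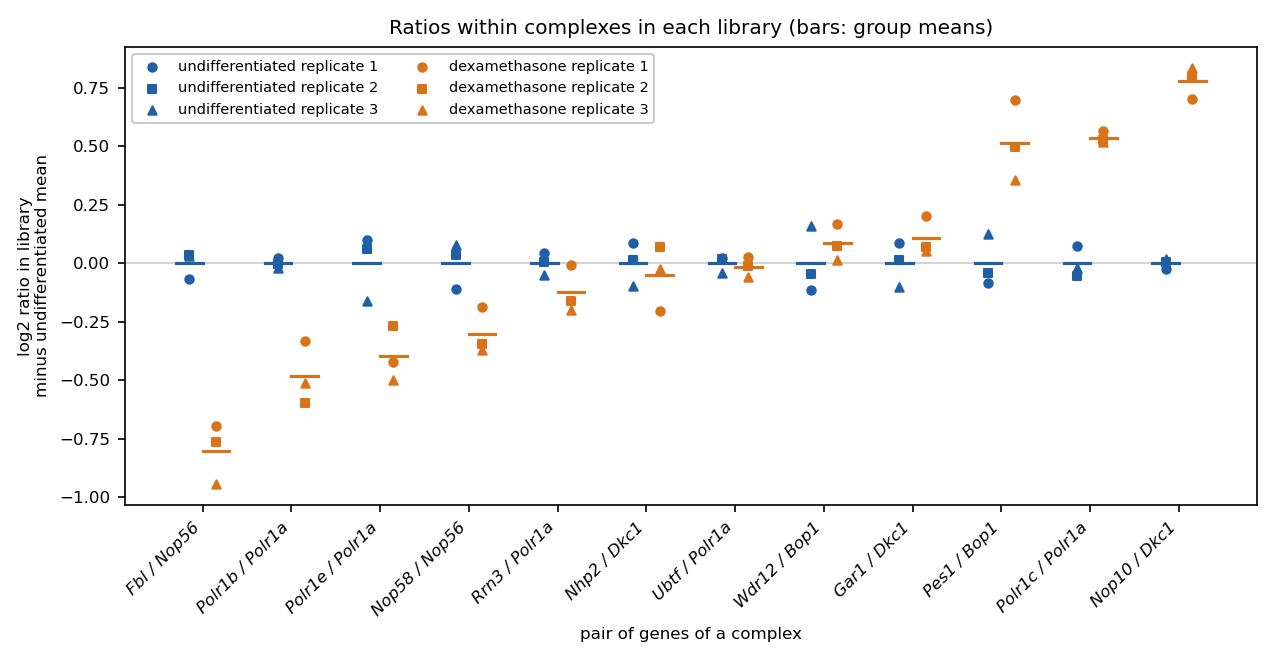
Log2 ratio of reads per kilobase of 2 genes of a complex in each library, minus the mean of the undifferentiated libraries (y axis), for the 12 ratios (x axis); points are libraries and short bars are group means. The ratio of Fbl to Nop56 is the lowest in the dexamethasone libraries (mean change -0.80) and that of Nop10 to Dkc1 the highest (0.78); the 5 ratios in the middle overlap between groups.

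Some members have a feature of gene structure in common that their choice did not use. Many snoRNAs are cut from the introns of other genes, and 7 of the 45 members (15.6%) hold annotated snoRNA genes on their own strand, 21 in all, against 195 of 11423 tested protein-coding genes (1.71%) and 4 of 137 other genes of the lists below (2.92%). The hosts are Nop56 with 5 such genes, Nop58 with 4, Ncl, Wdr43 and Gnl3 with 3 each, Tsr1 with 2 and Dkc1 with 1. Their median log2 fold change was -1.12, against -1.06 for the 38 members without one. The snoRNAs themselves were not analysed here, since the libraries were made from mRNA. In Nop56 8.00% of exon bases also belong to such genes, and reads there were not counted for either gene.

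The other genes of the pathway, from lists that hold no member, mostly fell as well. In the lists of ribosome biogenesis without the polymerases 88 of 95 genes fell, 4 rose and 3 were not called, with a median log2 fold change of -0.76. Of 34 other small subunit genes 33 fell and 1 rose (median -0.76); with upper quartile factors and with library totals 32 fell, since Riok1 was not called. Noc4l, of the processome, was lowest (-1.46), and Nat10, the RNA acetyltransferase of the 18S RNA, came next (-1.30). Imp3, a protein of the U3 particle, rose by 0.63 on the log2 scale, from 19.8 ± 0.842 to 30.9 ± 2.66 CPM (SD, n = 3; edgeR adjusted p = 1.58e-06). Its partners Rrp9 and Nop56 in the same particle are among the members that fell.

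Of 37 other large subunit genes 32 fell, 2 rose and 3 were not called (median -0.68). Rpf2 and Rrp15 had the lowest log2 fold changes, -1.37 and -1.26. Nsa2, an assembly factor of the large subunit, rose from 162 ± 8.37 to 221 ± 5.74 CPM (SD, n = 3; 0.45, edgeR adjusted p = 1.48e-08). Efl1, the GTPase that releases Eif6 from the finished subunit, rose from 31.2 ± 2.78 to 38.7 ± 0.612 CPM (SD, n = 3; 0.31, edgeR adjusted p = 0.00191). Nop53, Ddx24 and Zfp622 were not called.

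All 11 genes of snoRNP assembly fell (median -1.08), Tcof1 most (-1.66) and then Ruvbl1 (-1.31). Tcof1 encodes treacle, which works with UBF in ribosomal DNA transcription. Of 13 exosome and 5.8S trimming genes 12 fell and 1 rose (median -0.89). Exosc8, of the exosome ring, fell 6.36-fold from 92.7 ± 3.56 to 14.6 ± 1.16 CPM (SD, n = 3; -2.67), further than any member, and the nuclease gene Dis3 fell 3.60-fold. Exosc4, of the same ring, rose from 69.5 ± 2.39 to 82.1 ± 4.00 CPM (SD, n = 3; 0.24, edgeR adjusted p = 0.00152).

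The falls were not limited to RNA polymerase I. Of its 9 other subunits and promoter factors 7 fell and 2 were not called (median -0.57), with Taf1d (-1.31) and Cd3eap (-1.20) lowest. Twistnb, a stalk subunit, was not called (-0.04, edgeR adjusted p = 0.618), and nor was Taf1b (0.20, adjusted p = 0.057), which was called higher with upper quartile factors and with library totals. All 5 subunits shared between polymerases fell (median -0.96), Polr2f (-1.41) and Polr2h (-0.99) most. All 8 genes of the RNA polymerase II list fell (median -0.87; 7 fell with upper quartile factors and with library totals), Polr2d (-1.37) and Polr2i (-1.21) most. The eighth, Polr2m, encodes a protein that associates with the enzyme.

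Of 20 RNA polymerase III genes 15 fell, 1 rose and 4 were not called (median -0.65). With upper quartile factors 15 fell and 3 rose, and with library totals, where Gtf3c1 was not called, 14 fell and 3 rose. The lowest were the initiation factor genes Brf1 (-1.21) and Gtf3a (-1.07). The riser belongs to a pair of alternative subunits. Polr3gl was at 8.76, 9.69 and 7.47 CPM and then at 31.4, 25.9 and 26.1 CPM (log2 fold change 1.68 ± 0.127 SE, edgeR adjusted p = 2.23e-12). Its paralog Polr3g, known from dividing and stem cells, fell from 63.8 ± 5.74 to 33.6 ± 3.11 CPM (SD, n = 3; -0.91). Neither pair of groups overlapped.

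**Figure D4:**
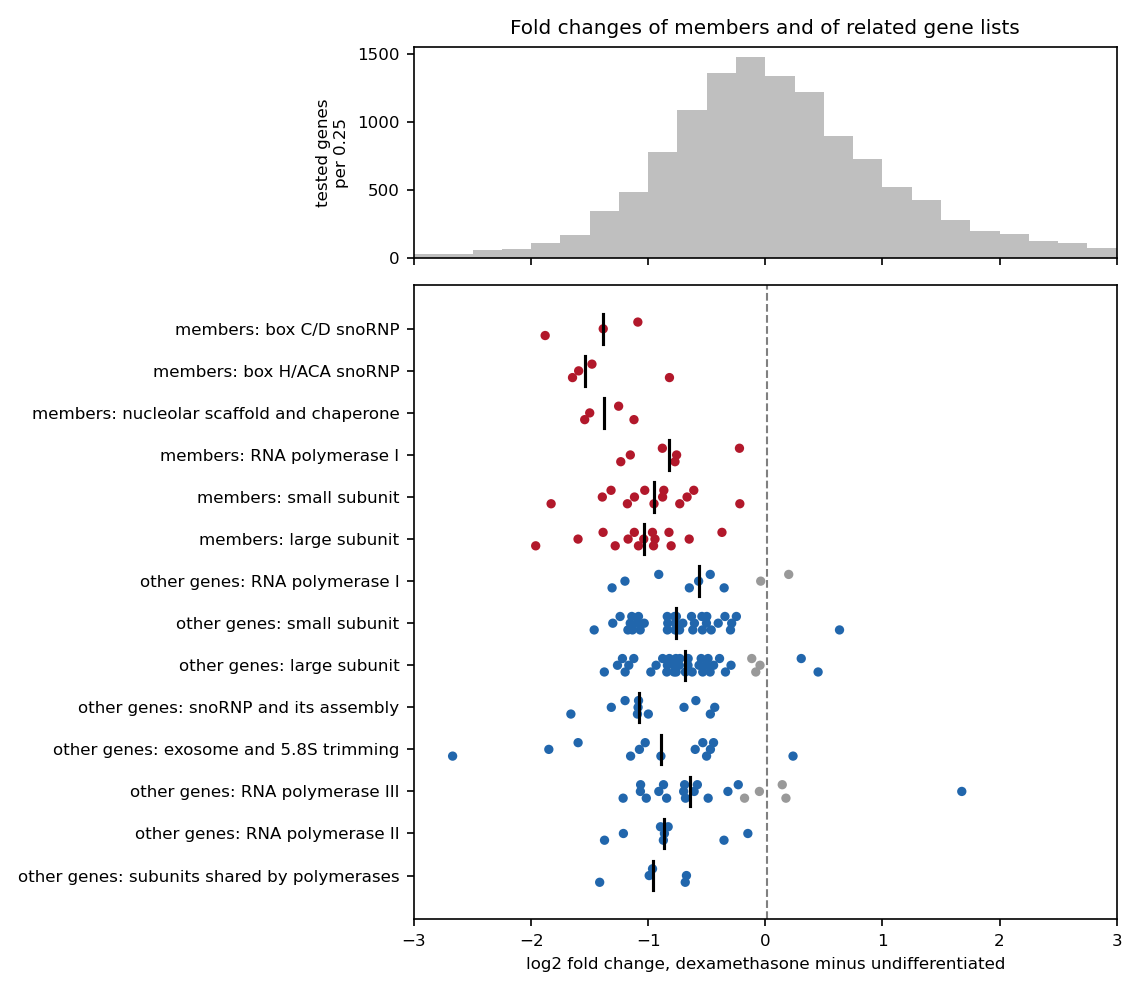
Top, number of tested genes per 0.25 of log2 fold change; bottom, log2 fold change, dexamethasone minus undifferentiated (x axis, drawn from -3 to 3), of each member (red) and of each other gene of the pathway and of the polymerases by list (blue where called, grey where not called), with black bars at list medians and a dashed line at the median of all tested genes. All members lie below 0, and the called genes above 0 are Imp3, Nsa2, Efl1, Exosc4 and Polr3gl.

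Genes of the Myc network moved in both directions beside the members: 4 fell, 5 rose and 1 was not called. Mycn fell 5.48-fold, from 163, 173.5 and 154 CPM to 28.8, 29.9 and 31.1 CPM (log2 fold change -2.46 ± 0.068 SE, edgeR adjusted p = 4.34e-22). Myc was at 218.5, 235 and 216 CPM and then at 242, 253 and 256 CPM, 1.12-fold higher (0.16 ± 0.052 SE, edgeR adjusted p = 0.00558). Mxd3, of the Mxd family that competes with Myc for Max, fell from 19.2 ± 2.33 to 0.835 ± 0.140 CPM (SD, n = 3; -4.49), and Mxd4 of the same family rose from 21.01 ± 2.00 to 76.2 ± 4.58 CPM (1.86). Mycl rose as well (2.89), on 6 and 55 reads in the 2 groups. Of the rest of the list Mnt (1.13) and Mxi1 (1.01) rose, Max (-0.40) and Mga (-0.40) fell, and Mxd1 was not called. The part of these genes in the members' fall was not tested.

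Cell division genes fell much further than the members. All 12 genes of that list fell, with a median log2 fold change of -4.57, and their summed level went from 4346 to 4508 CPM in undifferentiated libraries to 253.2 to 278.2 CPM in dexamethasone libraries. The largest falls were those of Rrm2 (-5.01), Ccna2 (-4.88) and Mki67 (-4.86). The groups of each of these genes did not overlap, and their part in the members' fall was not tested.

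The counts summed to 6476847 to 8168939 reads in undifferentiated and 6411105 to 8757992 in dexamethasone libraries. Of the noradrenergic marker genes, Th was at 4.60 and 9.52 CPM and Dbh at 165 and 12.5 CPM in undifferentiated and dexamethasone cells. The 5 astrocyte markers summed to 1.14 to 1.28 CPM and 0.775 to 1.64 CPM, and the 5 microglia and blood markers to at most 0.565 and 0.596 CPM, with no read of Cx3cr1 or Ptprc. Sox10, Olig1 and Cldn5 also had no read. The 5 endothelial markers summed to 18.3 to 21.3 and 33.4 to 35.7 CPM, nearly all from Pecam1, and the 6 fibroblast markers to 10.1 to 14.6 and 20.9 to 23.2 CPM, mostly from Dcn. Neuronal markers moved far more: the 5 genes of that list summed to 1559 to 1636 CPM in undifferentiated and 10050 to 12190 CPM in dexamethasone libraries, more than all members together in the latter. Most of that sum was Chgb, a granin of secretory vesicles, at 1028 ± 46.7 and 10000 ± 1124 CPM (SD, n = 3; 3.28 on the log2 scale); 4 of the 5 rose and Tubb3 fell. The part of these marker lists in the members' fall was not tested.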

How the data were processed

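The 6 files, 1 per library, hold read counts per gene. Reads were counted by the authors over the exons of Ensembl 96 genes, per the file headers with featureCounts 1.6.4 and strand setting 1. What they deposited are raw counts, whole numbers that had not been normalized. Per the submitters' processing notes HISAT2 2.2.0, Subread 1.6.4, Trim Galore 0.6.4, DESeq2 and FastQC 0.11.9 were used, on build GRCm38.p6. All 55536 identifiers had the same start and end in GENCODE M21, and 55450 had a symbol.

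Groups and replicate numbers came from the sample titles. Genes were kept with filterByExpr (minimum count 10, minimum total 15), which left 12664 genes with 99.8% of counts. They were tested with edgeR 4.0.16 (R 4.3.3; TMM factors, quasi-likelihood test, group as the only term, Benjamini-Hochberg adjusted p under 0.05). The common biological coefficient of variation was 4.41%. CPM values are TMM-scaled. Standard errors were derived from the log2 fold change and its F statistic. At 6411105 to 8757992 reads per library, 3 reads are 0.343 to 0.468 CPM. The test was tried on simulated counts. No library was a copy of another: within groups, chi-square over its degrees of freedom was 1.65 to 3.19.

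The members and all lists were chosen with earlier results of these data known, so their calls are no independent support for a pattern. Values in every library are given for 14 preset members and for the members with the lowest and highest log2 fold change of each role. In the other lists the 2 lowest called genes and up to 3 called higher are named, and in the context lists the 3 largest changes with Myc and Mycn. Genes named beyond this were chosen after their values were seen. Words were searched in RefSeq start regions of GRCm38.p6. The alternatives tried were upper quartile and RLE factors, library totals, other filters, DESeq2 1.42.0, limma 3.58.1 (voom), a replicate block, each library left out, ribosomal protein and mitochondrial genes left out, an adjusted p under 0.01 and a test against a fold of 1.5. A planned description of protein features was not run, since protein sequences were not used here.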

Additional observations from a re-analysis of the deposited data

How the results depend on the processing

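All 45 members fell under each alternative, except 44 with upper quartile factors (Polr1c not called), 43 with library totals (Polr1c and Nop14 not called) and 40 in the test against a fold of 1.5, where Polr1c, Nop14, Rrp1, Pes1 and Nob1 were not called. No member changed direction. Upper quartile factors and library totals moved the median of all genes from 0.02 to 0.12 and 0.14 on the log2 scale. Relative to that median the members' median lay between -1.13 and -1.09 under all alternatives. Against a fold of 1.5, 2316 genes were lower and 2853 higher over all genes, and 74 lower and 1 higher among the other genes of the pathway and of the polymerases, where the main counts were 4891, 5106, 123 and 5; this test asks for a larger change. With upper quartile factors and with library totals 8 of those other genes were called higher; the 3 added were Taf1b, Brf2 and Gtf3c3. Riok1 and Polr2m lost their call under both, and Gtf3c1 with library totals.

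Leaving out each library in turn gave 4674 to 4845 genes lower and 5022 to 5103 higher, with all 45 members lower each time. Of the ratios, that of Nhp2 to Dkc1 changed by 0.024 without dexamethasone replicate 1 (-0.113 without replicate 2), and that of Ubtf to Polr1a by 0.008 without dexamethasone replicate 3 (-0.036 without replicate 1), so both turned sign around 0. The ratios of Rrn3 to Polr1a (-0.181 to -0.086), Gar1 to Dkc1 (0.056 to 0.149) and Wdr12 to Bop1 (0.029 to 0.164), whose groups overlap, kept their sign. With the replicate number as a block 4803 genes were lower and 5017 higher, with all 45 members lower. Deviations of same-numbered libraries had r of -0.10, 0.04 and -0.07, and those of differently numbered libraries -0.041 to 0.105. With 3 libraries per group these values cannot exclude that same-numbered samples belong together. DESeq2 called 4606 lower and 4748 higher. Depth limits little here, since no member had fewer than 341 reads in a group.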
